A study of Chromochloris zofingiensis with 18 samples.

Results

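The green microalga Chromochloris zofingiensis was compared in 2 states, each sampled 12 h after its sulfur supply was changed. In SS-12 h, cells growing in complete medium had been washed and kept for 12 h without sulfate. In SR-12 h, cells had been starved of sulfur for 48 h and then given sulfur again for 12 h. The samples were chosen by their titles alone, 3 biological replicates of each, so 6 of the 18 transcriptomes of the series enter the comparison. All cultures were of strain ATCC30412, grown in column photoreactors under continuous light and CO2-enriched air. In the starvation medium magnesium chloride stood in for magnesium sulfate. How sulfur was returned is described differently in the sample records (fresh sulfur-containing medium) and in the study's methods (sodium sulfate added to the cultures), and both groups carry the same 12 h time label. Sulfur supply, the direction of its change and the age of the culture differ together between the groups and cannot be told apart. The untreated cells (SS-0 h) and the cells just before sulfur was returned (SS-48 h) are the starting points of the 2 groups, and their values are given beside them.

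Sulfur enters algal cells as sulfate, is reduced in the chloroplast and is built into cysteine, from which methionine, glutathione and the iron-sulfur clusters of photosynthetic electron carriers derive. Light-harvesting proteins are among the most abundant proteins of a green alga, and their transcripts are known to fall when a nutrient runs out. C. zofingiensis is also known for storing triacylglycerol and the carotenoid astaxanthin under stress.

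Expression is given as FPKM, a read count corrected for transcript length and for the sample's mapped reads. A log2 difference is the SR-12 h mean minus the SS-12 h mean of log2(FPKM + 1), followed by its standard error, so it understates the change of weakly expressed genes. Calls of higher or lower needed a difference of at least 1 in size with a limma adjusted p of 0.05 or less over 15220 genes. The files listed 14521 to 14551 genes in the SS-12 h samples and 14619 to 14671 in the SR-12 h samples. Replicates of each group correlated at 0.994 or more, against 0.92 to 0.93 between the groups. Standard errors and p-values rest on a spread shared by all 18 samples. These include SS-6 h, whose replicates correlated at 0.949 to 0.994. The steps between low FPKM values gave mapped depths of 1.0 to 1.03 for SS-12 h and 1.06 to 1.08 for SR-12 h, relative to SS-12 h replicate 1, so depth was similar in both. The 10 most abundant genes held 5.11% to 5.54% of the summed FPKM in SS-12 h and 8.75% to 9.32% in SR-12 h, and the part of this shift in other genes' values was not tested. Across all genes the median log2 difference was -0.10, so a difference near this value is the middle of the distribution. Of the 15220 genes, 8800 lay below 0, 8759 had an unadjusted p under 0.05 and 7980 an adjusted p of at most 0.05 by limma. Organelle-encoded genes held at most 0.03% of the summed FPKM in any of the 6 samples, which were poly-A libraries.

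Transcripts of 16 of 18 listed antenna proteins and 10 of 11 genes of cell division and DNA repair stood higher 12 h after sulfur return than 12 h after sulfur removal. Lower were 11 of 23 genes of fatty acid synthesis and 7 of 20 thiol and redox proteins, and among the largest falls were flavodoxin, LHC11 and plastocyanin, which also belong to photosynthesis. Of the 15220 genes, 1303 were called higher in SR-12 h and 653 were called lower, which is 8.56% and 4.29% of the genes tested. In 1300 of the former and 650 of the latter, no SR-12 h sample overlapped an SS-12 h sample. For comparison, 27.5% of all genes lay above SS-12 h in every SR-12 h sample and 43.6% lay below. A log2 difference of at least 2 in size was reached by 470 of the higher and 129 of the lower genes. Many of the higher genes were weakly expressed, 417 of them with a mean under 10 FPKM in both groups, against 105 of the lower. Most called genes have no name in the annotation used here, 1236 of the higher and 587 of the lower.

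**Figure D1:**
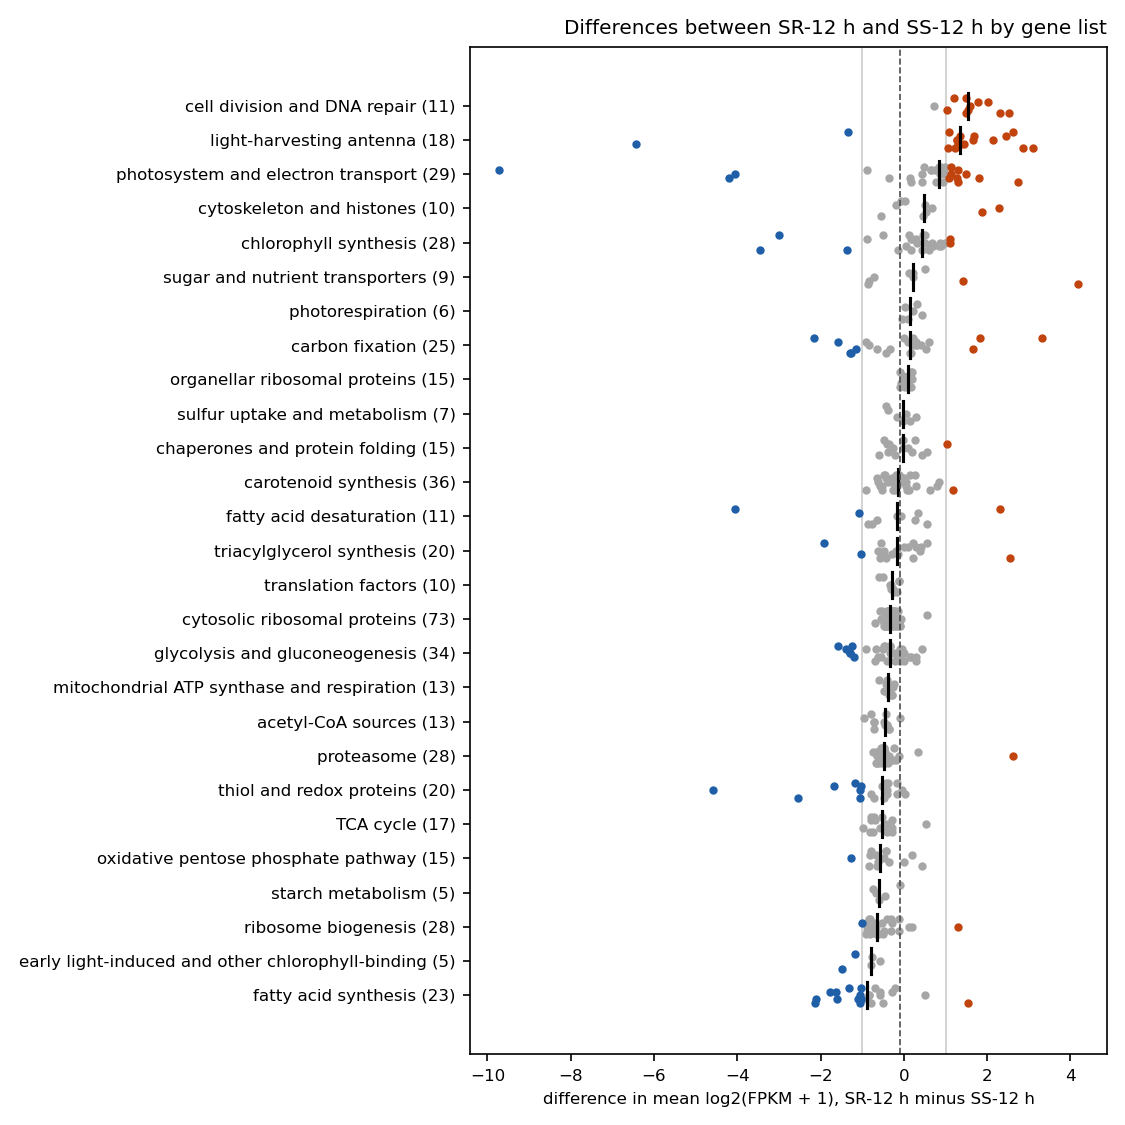
Difference in mean log2(FPKM + 1), SR-12 h minus SS-12 h, of every member of the 27 gene lists, with the number of members in brackets. Red points were called higher, blue points lower and grey points neither. Black bars are list medians, the dashed line is the median of all genes (-0.10), and the grey lines mark differences of -1 and 1. The cell division and antenna lists sit highest (medians of 1.55 and 1.36) and the fatty acid synthesis list lowest (-0.89).

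The antenna proteins bind chlorophyll and pass light energy to the photosystems. Of 18 listed members 16 were higher in SR-12 h and 2 were lower, with differences from -6.44 to 3.09 and a median of 1.36. Together they held 1.65% to 1.84% of the summed FPKM in SS-12 h and 6.42% to 6.71% in SR-12 h, beside 5.52% to 6.12% in SS-0 h. The study chose this list on the first 6 h of starvation in these cultures, so its direction is not independent evidence.

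LHC16 (Cz13g03240) was at 1249, 1035 and 1244 FPKM in the SS-12 h samples and at 9861, 10259 and 9879 FPKM in SR-12 h. The groups lay far apart, 8.5-fold on the means, with a log2 difference of 3.09 ± 0.22 and an adjusted p of 1.57e-08. LHC17 (Cz07g02110) gave 960, 846 and 899 FPKM against 6227, 6513 and 6816 FPKM (log2 difference 2.85 ± 0.20). LHC19 (Cz15g09060) gave 1188, 853 and 1095 FPKM against 6299, 6322 and 6442 FPKM (2.62 ± 0.22). All 3 antenna transcripts were several-fold more abundant in every SR-12 h sample, and their means in untreated cells were 8985, 8978 and 5823 FPKM. The other 13 higher antenna genes differed by 1.07 to 2.45.

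LHC11 (Cz14g01080) went the other way. Its FPKM was 802, 893 and 722 in SS-12 h and 8.33, 8.95 and 7.59 in SR-12 h, a 97.2-fold lower mean (log2 difference -6.44 ± 0.14, adjusted p 1.01e-13). It averaged 3.797 FPKM in untreated cells and 7.20 FPKM at SS-48 h, and its highest mean of the 6 groups was in SS-12 h. LHCSR (Cz16g02040), whose relatives in other green algae dissipate excess light energy, was also lower after return, at 183, 258 and 181 FPKM against 80.2, 84.3 and 77.1 FPKM (-1.33 ± 0.15).

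Early light-induced proteins are chlorophyll-binding relatives of the antenna linked to light stress. The list of these and other chlorophyll-binding proteins lay wholly below 0 in log2 difference, 2 of 5 called lower. ELIP7 (Cz17g00090) gave 246, 386 and 220 FPKM in SS-12 h and 67.9, 93.0 and 145 FPKM in SR-12 h (-1.49 ± 0.36, adjusted p 0.00256). For UNPLg00452, a chlorophyll a/b-binding protein, the values were 498, 895 and 500 FPKM against 222, 279 and 317 FPKM (-1.16 ± 0.29). Its replicates spread widely, and the difference was no longer called without SS-12 h replicate 2 (-0.88) or under quantile normalization (-0.90), which left 1 of the 5 genes lower.

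Soluble electron carriers moved in both directions, and flavodoxin had the largest difference of all genes. Plastocyanin, a copper protein, and cytochrome c6, a heme protein, carry electrons to photosystem I in the thylakoid lumen, and in the green alga Chlamydomonas the latter replaces the former when copper is short. Flavodoxin can take the place of ferredoxin, an iron-sulfur protein, on the acceptor side of photosystem I in many algae. Of the 29 genes of the photosystem and electron transport list 9 were higher, 3 lower and 17 not called, with a median of 0.83.

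Flavodoxin (Cz14g01090) had 2469, 2479 and 2239 FPKM in SS-12 h and 1.84, 1.42 and 2.36 FPKM in SR-12 h. This was a fall of 1279-fold on the means (log2 difference -9.72 ± 0.20, adjusted p 1.01e-13). Untreated cells averaged 8.36 FPKM and SS-48 h cells 12.0 FPKM, so the transcript was abundant at SS-12 h and low at both starting points. Its ID is next to that of LHC11, and the 2 genes had the 2 largest falls of all. The library preparation did not mark the strand, so reads of overlapping neighbours could not be told apart.

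Plastocyanin (Cz01g35130) was at 2872, 2801 and 3039 FPKM in SS-12 h and at 138, 117 and 234 FPKM in SR-12 h (-4.21 ± 0.19, adjusted p 2e-10). The gene beside it by ID, PETJ (Cz01g35120), which encodes cytochrome c6, showed the reverse with 845, 692 and 682 FPKM against 4873, 5438 and 4587 FPKM (2.75 ± 0.25, adjusted p 2.45e-07). Plastocyanin exceeded cytochrome c6 in every SS-12 h sample, and cytochrome c6 exceeded plastocyanin in every SR-12 h sample, on the FPKM scale. Untreated cells had the same order as SR-12 h, with means of 101 FPKM for plastocyanin and 7596 FPKM for PETJ.

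Ferredoxin FDX2 (Cz13g08120) fell from 41.7, 56.9 and 38.6 FPKM in SS-12 h to 2.02, 1.11 and 2.36 FPKM in SR-12 h (-4.05 ± 0.29). Its highest mean, 2031 FPKM, was at SS-6 h. PETF (Cz07g28150), a ferredoxin of photosynthesis, was looked up after these values were seen and gave 2623, 2253 and 2481 FPKM against 2732, 2846 and 2740 FPKM. Its difference of 0.18 ± 0.17 was not called.

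**Figure D2:**
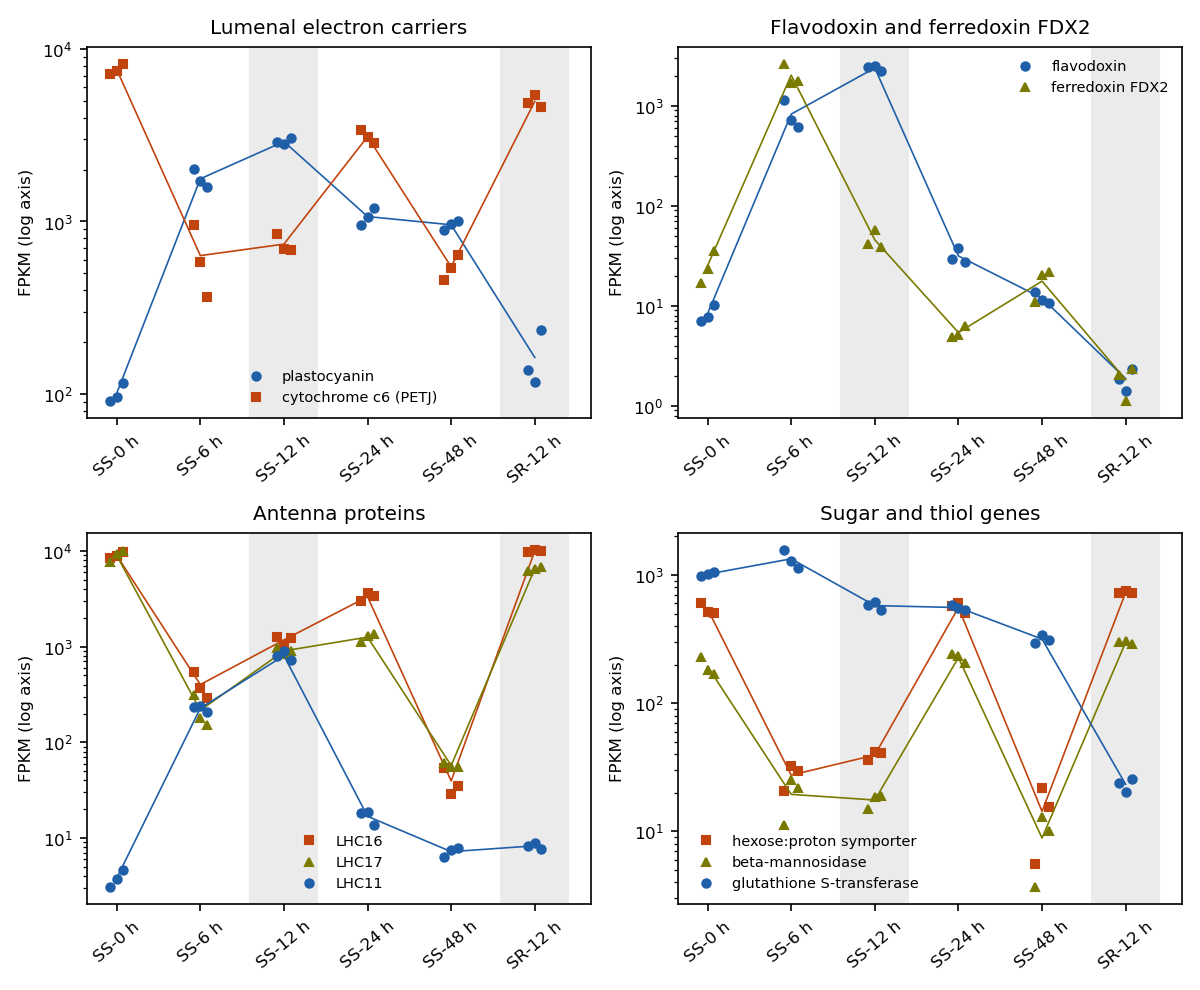
FPKM on a log axis of 10 genes in each of the 18 samples, by group, with lines through the group means and grey bands on SS-12 h and SR-12 h. Plastocyanin lies above cytochrome c6 in SS-12 h and below it in SR-12 h, and flavodoxin drops from above 2200 FPKM in SS-12 h to under 3 FPKM in SR-12 h.

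Several photosystem subunits were also higher in SR-12 h. PSAN (Cz17g10010), a lumenal subunit of photosystem I, rose from 325, 284 and 314 FPKM to 1115, 1082 and 1021 FPKM (1.80 ± 0.18). PSBP (Cz07g15040), of the oxygen-evolving complex of photosystem II, rose from 1478, 1352 and 1538 FPKM to 4122, 4102 and 3964 FPKM (1.48 ± 0.13). Another subunit of that complex, PSBQ1 (Cz05g13170), was singled out after its values were seen. It averaged 960 FPKM in untreated cells but only 13.1 FPKM in SS-12 h and 6.52 FPKM in SR-12 h, a difference of -0.88 ± 0.34 that was not called. PSBQ2 (Cz05g09100), also looked up afterwards and called higher, averaged 2782, 1707 and 4083 FPKM in those groups. The 2 PSBQ genes therefore stood far apart in SR-12 h, PSBQ2 above its untreated mean and PSBQ1 far below.

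Of 28 chlorophyll synthesis genes 2 were higher and 3 lower in SR-12 h, with a median of 0.44. The share of higher calls was below the 8.56% of all genes, and that of lower calls above the 4.29%. Under quantile normalization 5 were called higher, a share above that of all genes (1184 of 15220). The study took this list, seen here in part and without gene names, from the SR-12 h samples set against SS-48 h, which is not independent evidence. The higher members were Cz06g28160, at 200, 224 and 204 FPKM against 504, 433 and 432 FPKM (1.12 ± 0.17), and Cz02g03070 (1.11 ± 0.11). Cz02g39280 and Cz02g39270, neighbours by ID, fell by 3.46 ± 0.32 and 2.99 ± 0.61 on the log2 scale. The first had 428, 494 and 427 FPKM in SS-12 h and 42, 38.3 and 39.7 FPKM in SR-12 h, the second 240, 314 and 238 FPKM and 30.8, 32.6 and 32.9 FPKM. Their SS-12 h means were 11.2-fold and 8.22-fold those of SR-12 h, while the untreated means were 31.3 and 22.9 FPKM. Cz14g04140 was lower, at 24.2, 30.9 and 25.2 FPKM against 9.74, 7.99 and 11.5 FPKM (-1.38 ± 0.49, limma adjusted p 0.0266). This call was lost when SR-12 h replicate 1 or 2 or SS-12 h replicate 2 or 3 was left out (adjusted p 0.0533 to 0.0811). Its standard error and that of Cz02g39270 also take in SS-6 h. There the samples ran from 3.53 to 30.9 FPKM for Cz14g04140 and from 12.8 to 166 FPKM for Cz02g39270.

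Carbon fixation had calls in both directions, 3 of 25 higher and 5 lower with a median of 0.16. Of all genes 8.56% were called higher and 4.29% lower, so the higher share is near that of all genes. The study took this list too from SR-12 h against SS-48 h. RBCS (Cz17g13100), the small subunit of Rubisco and the most abundant transcript of all 6 samples, was looked up after its values were seen. It had 20761, 19291 and 23502 FPKM in SS-12 h and 22533, 26298 and 25575 FPKM in SR-12 h. These ranges overlap (0.23 ± 0.33), although RBCS stood at a mean of 37344 FPKM in untreated cells and 7672 FPKM at SS-48 h. The higher members have no name here. They were Cz07g22240, at 3.59, 3.62 and 4.01 FPKM against 40.2, 51.6 and 47.0 FPKM (3.31 ± 0.16), Cz01g40140 (1.83 ± 0.12) and Cz15g18140 (1.67 ± 0.21). A glyceraldehyde-3-phosphate dehydrogenase (GAPDH, Cz05g34160) was lower, at 484, 537 and 452 FPKM against 152, 151 and 186 FPKM (-1.59 ± 0.12). The aldolase FBA4 (Cz03g13070) was lower too (-1.30 ± 0.11). The study annotates this GAPDH as the NAD form and also lists both genes under glycolysis, where they are counted again below. The unnamed Cz07g23020 differed by -2.16 ± 0.13, and the remaining lower members, named after their values were seen, were Cz15g01060 (-1.27 ± 0.09) and Cz01g40120 (-1.16 ± 0.15).

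Genes of cell division and DNA repair were higher in 10 of 11 cases, the largest median of any list at 1.55. The study picked them on the fall at SS-6 h against 0 h, so they too are not independent evidence. A RecQ-like helicase (Cz01g16070), of a family that unwinds DNA during repair, had 0.56, 0.96 and 0.59 FPKM in SS-12 h and 8.53, 8.85 and 8.87 FPKM in SR-12 h (2.52 ± 0.13). The kinesins Cz10g09180 and Cz01g40150, from the family of motor proteins that move along microtubules, differed by 2.31 ± 0.22 and 2.02 ± 0.17. Cz10g09180 had 11.8, 15.9 and 14.95 FPKM against 77.5, 71.3 and 72.6 FPKM. All 11 genes had an adjusted p of at most 0.05 by limma, as did 7980 of all 15220 genes. FANCI (Cz05g32100), named after its values were seen, missed the call on size at 0.73 ± 0.23. Many of these genes are weakly expressed, and 6 rather than 10 were called among genes with a mean of at least 5 FPKM.

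Chromatin and cytoskeleton transcripts included 2 higher of 10, where 8.56% of all genes were called higher. A histone H1-like gene (Cz16g12250), of the linker histones that bind DNA between nucleosomes, gave 91.7, 87.2 and 81.1 FPKM in SS-12 h and 436, 435 and 414 FPKM in SR-12 h (2.29 ± 0.09). Alpha-tubulin (Cz11g05030), a building block of microtubules, gave 399, 389 and 384 FPKM against 1421, 1430 and 1478 FPKM (1.88 ± 0.22). SR-12 h means of 428 and 1443 FPKM compare with 431 and 884 FPKM in untreated cells.

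The largest rises of any gene belonged to UNPLg00344 and Cz09g27120, both without annotation here. UNPLg00344 went from 3.72, 4.52 and 4.48 FPKM to 380, 410 and 388 FPKM (6.23 ± 0.39), and Cz09g27120 from 80.4, 100 and 95.8 FPKM to 2988, 3094 and 2870 FPKM (5.01 ± 0.31). The next 2 genes are the largest rises among genes with a name. The gene annotated as a hexose:proton symporter (Cz06g22210), a sugar uptake carrier, had 35.8, 41.5 and 40.6 FPKM in SS-12 h and 718, 751 and 721 FPKM in SR-12 h (4.18 ± 0.31). A beta-mannosidase (Cz06g12190), which cleaves mannose from sugar chains, had 15.02, 18.7 and 18.9 FPKM against 302, 304 and 289 FPKM (4.02 ± 0.32). Those 2 genes were also high in untreated cells (542 and 193 FPKM) and at SS-24 h (558 and 226 FPKM), but low after 6 h and 48 h of starvation.

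A cellulase or endoglucanase (Cz05g14190), a pectate lyase superfamily member (Cz07g05040) and a glucan 1,3-beta-glucosidase (Cz07g05030) belong to enzyme families that cut cell wall polysaccharides. They rose by 3.16 ± 0.14, 3.04 ± 0.21 and 2.90 ± 0.18, from 0.04 to 1.27 FPKM in SS-12 h samples to 8.45 to 14.7 FPKM in SR-12 h samples. The last 2 are neighbours by ID. The 10 largest named rises also took in LHC16, LHC17, LCKAS2 (Cz12g02090, 57.6, 63.3 and 65.5 against 704, 881 and 762 FPKM, 3.63 ± 0.20), a carboxymethylenebutenolidase-like gene (UNPLg00162, 3.20 ± 0.11) and a PLAC8 family gene (Cz02g12170, 3.18 ± 0.16). In the list of sugar and nutrient transporters, a zinc transporter (UNPLg00528) was higher by 1.41 ± 0.06.

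None of the 7 genes of sulfur uptake and metabolism was called in the limma fit, where 12.9% of all genes were called in either direction, so that under 1 call among 7 genes is what the share over all genes gives. All 7 had differences between -0.42 and 0.29, with a median of -0.02. An unadjusted p under 0.05 was found for 2 of them and for 8759 of all 15220 genes. These 7 come from an annotation table of the most abundant genes, so less abundant sulfur genes were not looked at. The sulfate transporters Cz03g08060 and Cz03g08070, neighbours by ID, had 390, 429 and 423 FPKM against 439, 502 and 432 FPKM (0.14 ± 0.10), and 310, 365 and 338 FPKM against 394, 449 and 398 FPKM (0.29 ± 0.20). SR-12 h lay slightly above SS-12 h in every sample of both genes, but the limma adjusted p were 0.271 and 0.234. For Cz03g08070 the spread behind this p takes in SS-6 h, where it had 191, 388 and 396 FPKM. A solute carrier family 13 gene (Cz10g01050), of a family of sodium-dependent dicarboxylate and sulfate carriers, overlapped at 1430, 1579 and 1433 FPKM against 1621, 1515 and 1500 FPKM (0.06 ± 0.19). It averaged 3467 FPKM at SS-48 h, above both groups.

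Cysteine synthase (Cz03g05100), which makes cysteine from O-acetylserine and sulfide, had 1069, 997 and 1009 FPKM in SS-12 h and 806, 773 and 780 FPKM in SR-12 h. The groups did not overlap and the adjusted p was 0.00249, but the difference of -0.38 ± 0.09 was under the size for a call. The methionine cycle genes were high in both groups. Methionine synthase (Cz11g24160, annotated as a homocysteine S-methyltransferase) had 3049, 2771 and 2664 FPKM against 2220, 1994 and 2110 FPKM (-0.42 ± 0.19, adjusted p 0.0688). Its starting levels were far lower, at 553, 540 and 509 FPKM in SS-0 h and 159, 277 and 252 FPKM at SS-48 h. METM (Cz15g18200), which by its name makes S-adenosylmethionine, had 1096, 993 and 1122 FPKM against 1068, 1070 and 1023 FPKM (-0.02 ± 0.12), a sign that turned positive under median-ratio scaling and rescaling to TPM. Adenosylhomocysteinase (Cz01g01020), which cleaves the product left after methyl transfer, had 1250, 1190 and 1225 FPKM against 1092, 1061 and 1120 FPKM (-0.16 ± 0.08). At the 2 starting points METM averaged 373 and 535 FPKM and adenosylhomocysteinase 352 and 523 FPKM.

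**Figure D3:**
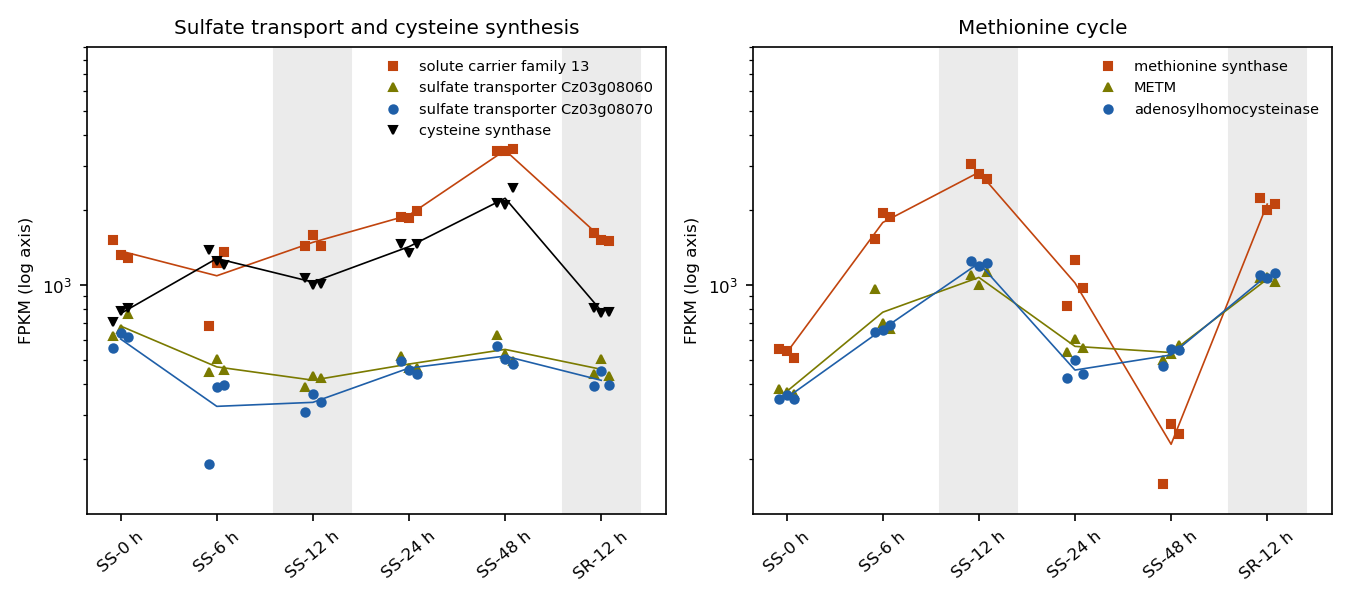
FPKM on a log axis of the 7 genes of sulfur uptake and metabolism in each of the 18 samples, with lines through group means and grey bands on SS-12 h and SR-12 h. The 3 methionine cycle genes are high in both bands, with methionine synthase at 1994 to 3049 FPKM, while the transporters and cysteine synthase are at similar levels in both.

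Thiol and redox proteins, which handle peroxides and thiol groups with cysteine or glutathione, were lower in 7 of 20 cases and higher in none, with a median of -0.52 and 19 members below 0. Only 4 were called lower under median-ratio scaling and 3 under quantile normalization. A glutathione S-transferase (Cz14g08160), of a family that joins glutathione to other molecules, had 582, 611 and 537 FPKM in SS-12 h and 24.0, 20.2 and 25.5 FPKM in SR-12 h (-4.58 ± 0.11, adjusted p 3.39e-13). It averaged 1014 FPKM in untreated cells and 316 FPKM at SS-48 h, so SR-12 h was its lowest condition. Peroxiredoxin-2F (Cz08g25270), which reduces peroxides, had 504.7, 838 and 504.9 FPKM against 83.6, 94.0 and 132 FPKM (-2.55 ± 0.25). A thioredoxin-like protein (Cz09g19090) fell by 1.67 ± 0.12 on the log2 scale. Thioredoxins TRX2 and TRX3, looked up after their values were seen, were not called at 0.04 and -0.05.

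Fatty acid synthesis leaned downward more than any other list, 11 of 23 genes lower and 1 higher with a median of -0.89. Under median-ratio scaling and quantile normalization 7 were called lower. The lower genes covered several steps of the chloroplast pathway, including the reductase KAR2, the dehydratase HAD and the malonyl transferase MCT1, which loads malonyl groups onto the acyl carrier protein. HAD (Cz01g09160) had 104, 121 and 102 FPKM in SS-12 h and 27.3, 24.3 and 22 FPKM in SR-12 h (-2.11 ± 0.12, adjusted p 1.02e-09). MCT1 (Cz13g05150) had 64.2, 75.5 and 58.7 FPKM against 20.9, 18.2 and 16.9 FPKM (-1.77 ± 0.11). KAR2 (Cz16g00050) was weakly expressed, at 5.89, 8.42 and 5.61 FPKM against 1.24, 0.34 and 0.67 FPKM (-2.14 ± 0.38). All 3 were below their untreated means of 170, 87.2 and 2.68 FPKM in every SR-12 h sample.

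The single higher member was the ACCase gene Cz19g10190, an acetyl-CoA carboxylase listed apart from the subunits of the chloroplast enzyme. It had 31.3, 32.7 and 28.7 FPKM in SS-12 h and 90.8, 93.7 and 92.2 FPKM in SR-12 h (1.55 ± 0.15). Its means were 105 FPKM in untreated cells and 50.9 FPKM at SS-48 h, and SS-12 h was its lowest group. SR-12 h differed from SS-48 h by 0.85 ± 0.15, which was not called. Subunits BCCP2, BC and β-CT of the chloroplast-type carboxylase, picked out after their values were seen, had differences of -1.63, -1.04 and -1.11 and were called lower, so carboxylase genes of this list moved in both directions.

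**Figure D4:**
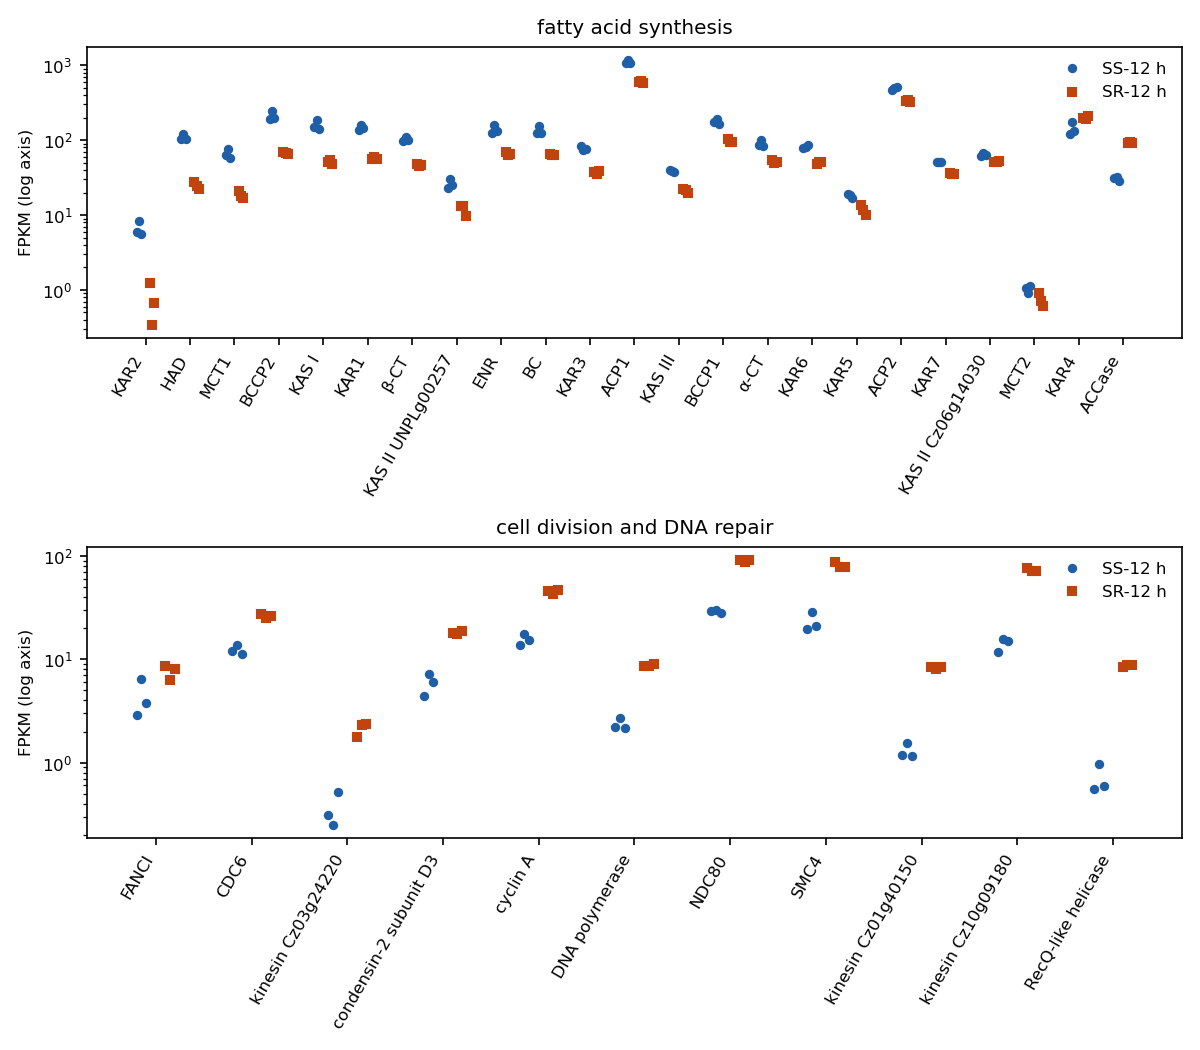
FPKM on a log axis of each replicate in SS-12 h (blue circles) and SR-12 h (red squares) for the 23 fatty acid synthesis genes and the 11 cell division and DNA repair genes, ordered by log2 difference. SR-12 h lies below SS-12 h for HAD (22 to 27.3 against 102 to 121 FPKM) and above it for ACCase and for kinesin Cz10g09180 (71.3 to 77.5 against 11.8 to 15.9 FPKM).

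Desaturases, which place double bonds in fatty acids, moved both ways. FAD2 (Cz03g33220), an omega-6 desaturase, had 40.9, 51.6 and 40.5 FPKM in SS-12 h and 0.88, 3.44 and 1.42 FPKM in SR-12 h (-4.05 ± 0.28), with an untreated mean of 4.84 FPKM. FAD6 (Cz08g04110) had 148, 173 and 144 FPKM against 69.4, 76.6 and 71.6 FPKM, and its difference of -1.08 ± 0.14 fell just short of a call under median-ratio scaling (-0.997) and quantile normalization (-0.92). A delta-4 desaturase-like gene (UNPLg00012) was higher, at 11.8, 12.9 and 12.1 FPKM against 65.5, 64.6 and 63.2 FPKM (2.303 ± 0.23). The other 8 of 11 were not called, where 12.9% of all genes were called in either direction.

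Of 20 triacylglycerol synthesis genes 1 was called higher, 2 lower and 17 neither, near the 12.9% of all genes called in either direction. MLDP (Cz04g29220), the major protein of lipid droplets, was lower in SR-12 h with 461, 441 and 386 FPKM against 108, 116 and 113 FPKM (-1.92 ± 0.15), and averaged 199 FPKM in untreated cells and 805 FPKM at SS-48 h. The phosphatase PAP3 (Cz16g11240), which forms diacylglycerol, was lower by -1.03 ± 0.25. Its call was lost under median-ratio scaling and quantile normalization and without SR-12 h replicate 1 or SS-12 h replicate 2, with -0.82 and -0.95. DGTT6 (Cz15g22140), a type II acyltransferase for the last step, was higher with 6.33, 7.39 and 7.59 FPKM against 44.9, 47.7 and 45.6 FPKM (2.54 ± 0.23). It averaged 30.8 FPKM in untreated cells and 30.3 FPKM at SS-48 h, and SS-12 h was its lowest group. SR-12 h differed from SS-48 h by 0.63 ± 0.23, which was not called. Among 36 carotenoid genes, 1 was higher, where 8.56% of all genes were called higher. The higher gene was phytoene synthase (PSY, Cz05g32220), the entry enzyme of the pathway, at 21.4, 28.04 and 18.8 FPKM against 53.8, 48.4 and 53.6 FPKM (1.17 ± 0.17).

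Central carbon metabolism leaned slightly downward. Glycolysis and gluconeogenesis had 6 of 34 genes lower and none higher (median -0.34), among them GAPDH and FBA4 above and the fructose-bisphosphatase FBP3 (Cz05g01180), at 191, 164 and 175 FPKM against 64.2, 60.6 and 77.7 FPKM (-1.38 ± 0.11). Transaldolase TAL1 (Cz06g25040) was the 1 gene of 15 called in the oxidative pentose phosphate pathway, at 417, 369 and 390 FPKM against 159, 155 and 170 FPKM (-1.28 ± 0.09). That is near the 4.29% of all genes called lower. Limma called no gene among 17 of the TCA cycle (median -0.52), 13 that supply acetyl-CoA (-0.45) or 5 of starch metabolism (-0.59), although 16, 12 and 4 of them had an unadjusted p under 0.05. Their largest differences were those of citrate synthase CIS2 (Cz02g12210, -0.98 ± 0.06), the pyruvate dehydrogenase subunit PDHC4 (Cz01g37230, -0.95 ± 0.09) and a glycogen phosphorylase (Cz07g16020, -0.73 ± 0.17), each with an adjusted p of at most 0.05. CIS2 passed the size for a call, at -1.01, when replicate 3 of either group was left out.

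Genes of protein synthesis and turnover gave few calls. By limma none of 73 cytosolic ribosomal proteins was called, and 72 were below 0 with a median of -0.33. An unadjusted limma p under 0.05 was found for 13 of them and for 8759 of all 15220 genes. The spread behind these p-values takes in SS-6 h, where the summed FPKM of the list ran from 85342 to 178412. In the 2 groups compared the sums did not overlap, at 117659 to 135260 in SS-12 h and 96028 to 111307 in SR-12 h. How far SS-6 h raised the p-values was not tested. The largest difference was that of S27e (Cz11g21140, -0.69 ± 0.12), and the exception above 0, named after its values were seen, was S12e (Cz12g15120, 0.57 ± 0.28). These genes together held 11.9% to 13.3% of the summed FPKM in SS-12 h and 9.79% to 11.12% in SR-12 h, both above the 5.42% to 6.41% of untreated cells. There was likewise no limma call among 15 organellar ribosomal proteins (largest difference 0.21 ± 0.10, L29, Cz03g38180), 13 of mitochondrial ATP synthase and respiration (-0.60 ± 0.11, Cz06g37200), 10 translation factors (-0.59 ± 0.10, a polyadenylate-binding protein, Cz06g19170) or 6 of photorespiration (0.44 ± 0.10, a glycine cleavage P protein, Cz05g11130). Those lists held 1, 13, 6 and 2 genes with an unadjusted p under 0.05.

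The proteasome list, which the study took from SS-6 h against 0 h, had a median of -0.47 and 26 of 28 members below 0, none called lower. Its 1 called member, Cz08g32160 without a name here, was higher, at 2.45, 2.34 and 2.13 FPKM against 20.1, 20.1 and 18.1 FPKM (2.63 ± 0.14). Ribosome biogenesis, taken by the study from SR-12 h against SS-48 h, had a median of -0.65 with 1 gene higher (Cz05g20240, 1.31 ± 0.11) and 1 lower (Cz05g00180, -1.01 ± 0.10). That lower call was lost under median-ratio scaling (-0.93), under rescaling to TPM (-0.98) and when SR-12 h replicate 3 or SS-12 h replicate 1 or 3 was left out (-0.97, -0.98 and -0.96). Of 15 chaperone genes 1 was higher, binding protein 1 (Cz17g14060, 1.03 ± 0.11), where 8.56% of all genes were called higher.

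The 10 largest named falls were flavodoxin, LHC11, glutathione S-transferase Cz14g08160, plastocyanin, FDX2 and FAD2, given above, and 4 others. These were a SnoaL-like gene (Cz07g11080), a gene annotated as an NAD-dependent epimerase/dehydratase (Cz07g07130), an aldose 1-epimerase (Cz13g05140), which interconverts sugar anomers, and a gene of the GPR1/FUN34/yaaH membrane protein family (Cz01g32260). Cz07g11080 had 106, 92.3 and 95.6 FPKM in SS-12 h and 2.19, 1.27 and 2.51 FPKM in SR-12 h (-5.07 ± 0.16). Cz07g07130 fell by 4.14 ± 0.18, Cz13g05140 by 3.74 ± 0.35 and Cz01g32260 by 3.59 ± 0.29 on the log2 scale. Cz01g32260 is listed at 0 in SR-12 h replicate 2 and at 0.21 and 0.10 FPKM in the other replicates.

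The 2 states were reached from different starting points, so each group was also compared with its own. After removal (SS-12 h against SS-0 h) 1129 genes were higher and 1813 lower, 7.42% and 11.9% of those tested. After return (SR-12 h against SS-48 h) 1249 were higher and 2732 lower, 8.21% and 18.0%. The balance of the second comparison rests on scaling, since median-ratio scaling, which sets SS-48 h samples lower by factors near 1.2, gave 1775 higher and 1556 lower, and the median of all genes moved from -0.32 to -0.03. These comparisons share no samples, so their calls can be set against each other.

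Genes called in both mostly moved in opposite directions, 828 of 1324 (62.5%). Of these, 674 were lower after removal and higher after return, which is 37.2% of the genes lower after removal and 54.0% of those higher after return. Another 154 were higher after removal and lower after return, 13.6% and 5.64%, both below the shares over all genes (18.0% lower after return and 7.42% higher after removal). Among genes moving the same way, 430 were lower in both and 66 higher in both. The 430 were 23.7% of the genes lower after removal, above the 18.0% of all genes lower after return. The 66 were 5.85% of the genes higher after removal, below the 8.21% of all genes higher after return. Under median-ratio scaling the 154 became 89 and the 66 became 110. The shares over all genes set beside these counts also rest on scaling. Under median-ratio scaling 1556 genes rather than 2732 were lower after return, and 1775 rather than 1249 were higher. Across all 15220 genes the changes were weakly related, with a Pearson r of -0.18 and a Spearman rho of -0.05, given as a description since genes are not independent. A test of the difference between the changes called 2045 genes more positive after return and 3517 more negative, 36.5% of genes in all. Median-ratio scaling turned this balance to 2556 more positive and 2317 more negative. All 828 genes with opposite calls were among those called without that scaling. This follows almost wholly from their calls in opposite directions, so it is not separate evidence.

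Lower after removal and higher after return were LHC16 (-2.94 ± 0.22 and 8.0 ± 0.22), LHC17 (Cz07g02110, -3.31 and 6.81), PETJ (-3.36 and 3.19), the hexose:proton symporter Cz06g22210 (-3.75 and 5.76) and the beta-mannosidase Cz06g12190 (-3.38 and 5.07). The changes of LHC16 differed by 10.93 ± 0.31 with an adjusted p of 5.41e-13. As lists, the antenna had 10 of 18 genes lower after removal and 16 higher after return, and cell division 9 of 11 lower and 8 higher, both on lists chosen for falls or changes in these cultures. Higher after removal and lower after return were plastocyanin (4.84 ± 0.19 and -2.61 ± 0.19), flavodoxin (8.01 and -2.18), FAD2 (2.95 and -4.84), Cz07g07130 (4.63 and -2.44) and Cz01g32260 (3.29 and -2.23). LHC11 rose by 7.40 ± 0.14 after removal but changed by only 0.18 ± 0.14 after return, which was not called.

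Of the 66 genes higher in both 12 h changes, fewer than the share over all genes gives, 10 have a name here. Methionine synthase was higher by 2.40 ± 0.19 after removal and 3.24 ± 0.19 after return. The other named ones described are a flagellar associated protein (Cz10g29070, 1.78 and 1.57), a glycine-rich RNA-binding protein (Cz14g18060, 1.29 and 1.36), an FK506-binding protein (Cz14g18200, 1.19 and 1.35) and glutamine synthetase (Cz12g28130, 1.18 and 3.25), which assimilates ammonium. Glutamine synthetase had 619, 557 and 615 FPKM in SS-12 h and 704, 675 and 639 FPKM in SR-12 h, and only 70.1 FPKM on average at SS-48 h. The direct differences between SR-12 h and SS-12 h for these 5 genes ran from -0.51 to 0.17 and none was called.

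Among genes lower in both were an oxidoreductase (Cz14g12230, -2.39 after removal and -3.09 after return), a metallo-beta-lactamase family gene (Cz11g25100, -2.66 and -2.38), an NAD(P) transhydrogenase (Cz03g01040, -2.05 and -1.66), the acyltransferase DGTT1 (Cz06g35060, -1.62 and -2.70) and an RmlC-like cupin gene (Cz12g26090, -1.64 and -1.59). Cz14g12230 averaged 213 FPKM in untreated cells, 39.9 FPKM in SS-12 h and 4.50 FPKM in SR-12 h, where it was 8.86-fold lower than in SS-12 h (-2.92 ± 0.14).

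Ribosomal proteins differed in where the change lay. After removal 65 of 73 cytosolic ribosomal protein genes were higher with a median of 1.22, while after return 2 were higher and 1 lower with a median of 0.19. Quantile normalization reduced the 65 to 11 and turned the second median to -0.38, with no gene higher and 3 lower after return. The fatty acid synthesis genes showed the reverse order, 4 of 23 higher and 1 lower after removal against 1 higher and 16 lower after return, with medians of 0.29 and -1.48. Across the other scalings 2 to 4 were higher after removal and 0 to 2 after return. The summed FPKM of the fatty acid synthesis list was 2388 to 2527 in SS-0 h, 10575 to 13180 in SS-6 h and 3334 to 3755 in SS-12 h. The change over 12 h after removal therefore leaves out a higher level at SS-6 h.

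**Figure D5:**
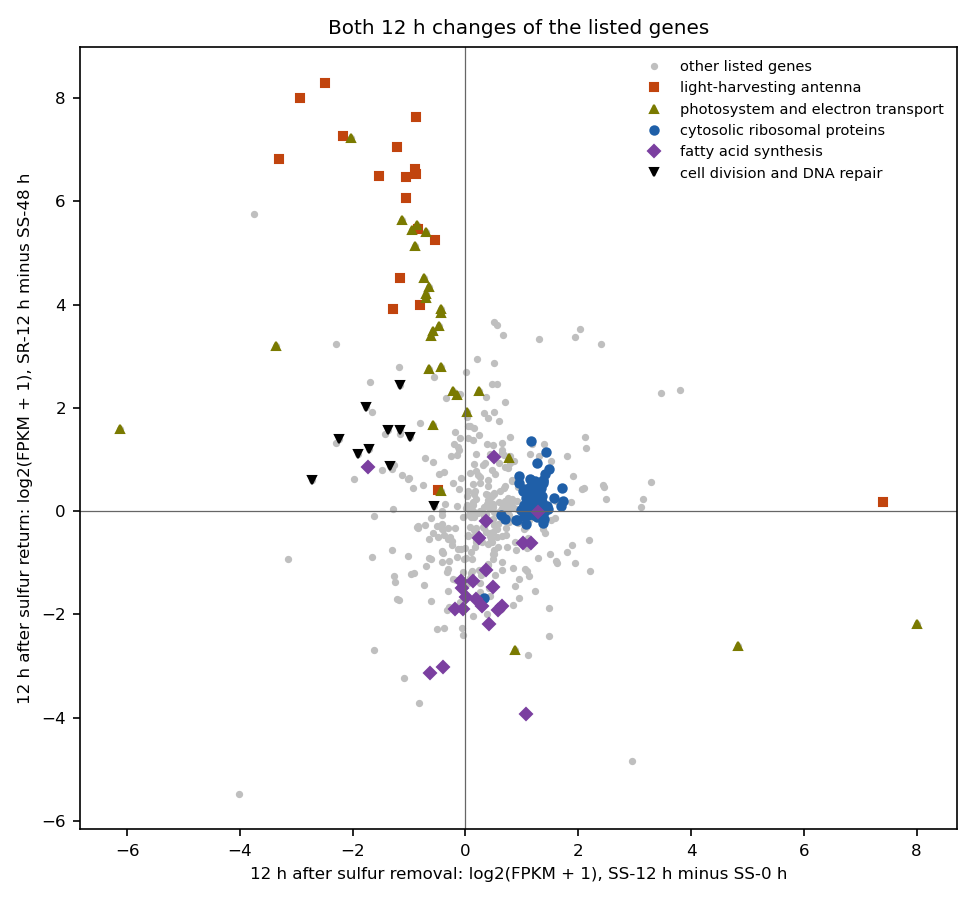
Change of log2(FPKM + 1) over the 12 h after sulfur removal (SS-12 h minus SS-0 h, horizontal) against the change over the 12 h after sulfur return (SR-12 h minus SS-48 h, vertical) for the 515 listed genes, with 5 lists coloured. Antenna genes lie at the upper left (list medians of -1.05 and 6.48), ribosomal proteins right of 0 at low heights (1.22 and 0.19) and fatty acid synthesis genes below 0 (median -1.48 after return).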

How the data were processed

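RNA of 18 cultures was sequenced in 6 groups of 3 replicates. The authors purified poly-A mRNA, read single ends, aligned clean reads with HISAT and Bowtie2 and calculated expression with RSEM. Versions and genome build are not given in the sources used here. The deposited values are FPKM per gene and sample to 0.01. Genes missing from a sample's file were set to 0. Because values are FPKM, no count test was run, and precision was taken from the spread of replicates.

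The 18 samples entered 1 limma fit (limma 3.58.1, R 4.3.3, eBayes with trend, no replicate block) of log2(FPKM + 1), with Benjamini-Hochberg adjustment over 15220 genes. The fit was tested on simulated data. Summaries and figures were made in Python with pandas and matplotlib. Groups came from sample titles.

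Gene names and 27 lists came from the study's annotation tables, partly shortened. They were chosen with earlier results of these data known, and some lists were picked by the study on these samples. Lists are described by counts and medians. The text names every sulfur gene, up to 3 called genes each way per list (or the largest difference where none was called), the 10 largest named and 2 largest of all rises and falls without overlap, and 5 genes for each pattern of the 2 changes over 12 h. In the data, 128 genes had the same values as another gene in every sample, 22 of them called, and may be copies that share reads. None is named.

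The fits were repeated with pseudocounts of 0.5 and 0.1, with mean FPKM minimums of 1 and 5, after median-ratio scaling, rescaling to TPM or quantile normalization, without the trend, on the compared groups alone, with a replicate block, at an adjusted p of 0.001 and without each replicate in turn. The counts of genes called in both changes over 12 h under these settings were added after seeing the data.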

Additional observations from a re-analysis of the deposited data

How the results depend on the processing

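The counts of SR-12 h against SS-12 h stayed within 1.5 times under all 17 alternatives, from 939 to 1683 higher and 545 to 791 lower, the extremes coming from a mean of at least 5 FPKM, a pseudocount of 0.1 and median-ratio scaling. Leaving out 1 replicate gave 1263 to 1348 higher and 636 to 672 lower genes. With a replicate block 1301 and 653 were called. The replicate numbers did not pair the samples, since the deviations of same-numbered SR-12 h and SS-12 h samples correlated at -0.08 to 0.01. After return, the genes called lower numbered 1556 under median-ratio scaling and 1809 under quantile normalization, against 2732, with 1775 and 1763 higher. For the difference of the changes over 12 h, 2317 genes were lower under median-ratio scaling, against 3517, with 2556 higher. Genes higher after removal and lower after return then numbered 89 instead of 154, and genes higher in both 110 instead of 66. The cause was not tested. Of 88 named genes, METM (Cz15g18200) alone changed sign, to 0.0647 under median-ratio scaling and 0.0046 under TPM, and ran from -0.074 to 0.0137 without single replicates. Of 67 called named genes, 6 lost the call in at least 1 alternative, and 9 of 54 list counts moved by over 1.5 times. Weakly expressed genes are the least precise, since few reads lie behind their values.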

Other observations

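Genes called in SR-12 h against SS-12 h often had a neighbour by ID that was also called. Of 14345 pairs of neighbouring genes on numbered chromosomes, 501 had both members called, and 406 of these pairs (81.0%) moved in the same direction. Among all pairs of called genes 55.2% share a direction, and of called genes with a next gene 27.3% were followed by another called gene, where 12.8% of these genes were called. Flavodoxin with LHC11, the pair Cz02g39270 and Cz02g39280, and the wall-polysaccharide genes Cz07g05030 and Cz07g05040 belong to the pairs that moved together. Plastocyanin with PETJ belongs to the 95 pairs that moved in opposite directions. Whether tandem copies or overlapping transcripts were among the pairs was not tested.

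Of 22 mitochondrion-encoded genes 2 were higher in SR-12 h, a share near the 8.56% of all genes called higher. They were CzMTg00030 (1.32) and CzMTg00340 (1.04), named after their values were seen. None of 72 chloroplast-encoded genes was called by limma, with a median of 0.03. An unadjusted p under 0.05 was reached by 7 of them, against 8759 of all 15220 genes. Both sets were read at low levels in these poly-A libraries.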
